A study of Macaca mulatta with 30 samples.

Results

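Potassium channels are assembled from subunits whose gene symbols start with KCN, and the transcripts of these genes were followed in fetal rhesus macaque lung and hippocampus after a maternal injection of betamethasone. Members were all genes with an Ensembl rhesus symbol starting with KCN, of which the gene name table holds 91. The lung count table held 64 of them, the hippocampus count table held 67, and 24 were in neither. A gene was kept in a tissue where at least 7 reads were counted in at least 3 lung or 5 hippocampus libraries, which left 51 of 17644 genes in lung and 62 of 17390 genes in hippocampus. In all, 64 members were kept, 49 of them in both tissues, 2 only in lung (KCNG4 and KCNK7) and 13 only in hippocampus. Of those 13, KCNJ10, KCNJ4 and KCNK9 had no row in the lung counts, so their lung level is not known. KCNG4 and KCNK7 had few reads in either tissue, 119 and 129 over the lung libraries and 42 and 47 over the hippocampus libraries. A further 3 members with a row in a table passed in neither tissue. By symbol the 64 were 29 pore-forming subunits of voltage-gated channels, 7 auxiliary subunits of these, 8 inward rectifiers and 9 channels with 2 pore domains. The rest were 7 channels opened by calcium or sodium, 3 auxiliary subunits of the large calcium-activated channel, and KCNRG, a regulator of voltage-gated channels.

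Potassium leaves the cell through these channels, which holds the resting membrane potential and ends action potentials. Voltage-gated pores open on depolarization, inward rectifiers and channels of the 2-pore-domain family carry current at rest, calcium-activated channels open as calcium rises in the cell, and auxiliary subunits set how a pore opens or where it sits. In the lung they are known for the tone of pulmonary arteries and airways and for salt and water transport by epithelium. In the hippocampus they set how neurons fire, and astrocytes use them to take up the potassium that firing neurons release.

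Pregnant rhesus macaques received a single intramuscular injection of saline, of the clinical drug at 0.25 mg/kg or of Beta-Ac at 0.125 mg/kg. The clinical drug, Celestone, is a mixture of betamethasone phosphate and betamethasone acetate, and Beta-Ac is betamethasone acetate alone. Both are esters of the synthetic glucocorticoid betamethasone. RNA was sequenced from whole lung of 3 fetuses in each of 5 groups (saline, clinical drug at 4 h and 5 d, Beta-Ac at 6 h and 5 d) and from hippocampus of 5 fetuses in each of 3 groups (saline, and both drugs at 5 d). The single lung saline group served the early and the 5 d comparisons, and the first delivery differed between drugs (4 h against 6 h), as did the dose. Labelled gestational age was 124 to 130 d in each lung group, and 130 to 135 d in the saline, 131 to 136 d in the clinical drug and 132 to 133 d in the Beta-Ac hippocampus group. For the 9 fetuses with both tissues the labels disagree, since the hippocampus age lies outside the lung range in all 9. For hippocampus the library names and the dose and treatment fields give opposite drugs, and groups followed the names, which match the lung labels of the same animals. Hippocampus libraries are named as labelled, with CTL for saline, BAC for Beta-Ac and CEL for the clinical drug before the animal number. The hippocampus libraries came from 4 sequencing runs, 2 of which held all 3 groups. The remaining runs held saline animals only, CTL092 and CTL101 in run0024 and CTL209 in run0162. Run and treatment therefore cannot be fully told apart in comparisons with saline. With run as a block, or within the 2 shared runs, only CTL113 and CTL212 stand for saline. These were bulk samples, in which fewer cells of a type and less RNA per cell cannot be told apart.

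Reads counted on genes came to 14.1 to 45 M per lung library and 18.3 to 29.3 M per hippocampus library. Members took 0.0339 to 0.0462% of the lung reads and 0.206 to 0.26% of the hippocampus reads. Levels are given as CPM, the counts scaled to library size with TMM normalization within a tissue. The mean over all libraries was under 1 CPM for 14 of 51 members in lung and for 5 of 62 in hippocampus, and 6 members exceeded 100 CPM in hippocampus and 0 in lung. Summed alveolar epithelial markers were 7350 to 18500 CPM in lung and 211 to 326 CPM in hippocampus. In hippocampus ABCA3 alone was at 203 to 320 CPM, and no other marker of this list exceeded 10.1 CPM there. Summed neuron markers were 4490 to 7570 CPM in hippocampus and 7.63 to 20.2 CPM in lung. The hippocampus library of saline animal CTL212 stood apart, with summed choroid plexus markers of 1110 CPM against 8.36 to 29.8 CPM in the other 14 libraries and the lowest sum of neuron markers. The hippocampus library of Beta-Ac animal BAC130 held the highest sum of thalamus and striatum markers, 208 CPM against 85.9 to 200 CPM in the others. Called values that rest on either library are given with and without it.

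At 4 h after the clinical drug, 5 of the 51 lung members differed from saline. The 2 higher genes included the auxiliary subunit KCNMB4, which slows the large calcium-activated channel. The voltage-gated subunits KCNS3, KCNH3 and KCNH2 were lower. Differential expression was called where edgeR's quasi-likelihood test gave p under 0.05 and Storey's q, taken over all genes, was under 0.1, with levels differing 1.5-fold or more, and by this rule 7.4% of all genes were called, 3.46% higher and 3.94% lower. The members' counts of 2 higher and 3 lower of 51 were near that background. The median log2 fold change was -0.2 over the members and 0.02 over all genes, and 34 of the 51 members had a negative value.

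KCNS3 (Kv9.3) forms no current by itself and modifies other voltage-gated pores in the same channel. Its level was 43.7, 44.8 and 48.2 CPM in the saline animals and 11.2, 14.4 and 15.1 CPM 4 h after the clinical drug. All 3 treated animals lay far below all 3 controls. The log2 fold change was -1.76 (SE 0.19, edgeR adjusted p = 7.92e-05), from a mean of 45.6 ± 2.35 to one of 13.6 ± 2.05 CPM (SD, n = 3 each).

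KCNMB4 was evenly higher, at 37.0, 31.7 and 38.3 CPM after 4 h against 19.9, 17.1 and 21.3 CPM in saline, a log2 fold change of 0.87 (SE 0.13, edgeR adjusted p = 0.000658). The pore it binds, KCNMA1, the BK channel of airway and vascular smooth muscle, was at 19.9 to 29.8 CPM at 4 h and 25.5 to 29.2 CPM in saline and was not called (log2 fold change -0.18, SE 0.18, adjusted p = 0.46). The other 2 auxiliary subunits of the BK channel kept in lung were not called either.

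Both lower KCNH genes encode voltage-gated subunits of the ether-a-go-go family. KCNH3 was at 10.6, 15.7 and 10.1 CPM in saline and 5.10, 5.46 and 6.95 CPM at 4 h, without overlap (log2 fold change -1.06, SE 0.25, edgeR adjusted p = 0.0153). KCNH2 (hERG), which repolarizes heart muscle, was at 37.5, 50.4 and 33.6 CPM in saline and 24.1, 19.3 and 27.7 CPM at 4 h. These groups did not overlap, and the log2 fold change was -0.77 (SE 0.26, edgeR adjusted p = 0.0789). The KCNH2 call was lost in 6 of 11 alternatives. Among these were leaving out animal 81, 85, 92 or 101, with adjusted p between 0.129 and 0.232. The calls of KCNS3, KCNMB4 and KCNH3 were kept in all 11 alternatives.

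**Figure D1:**
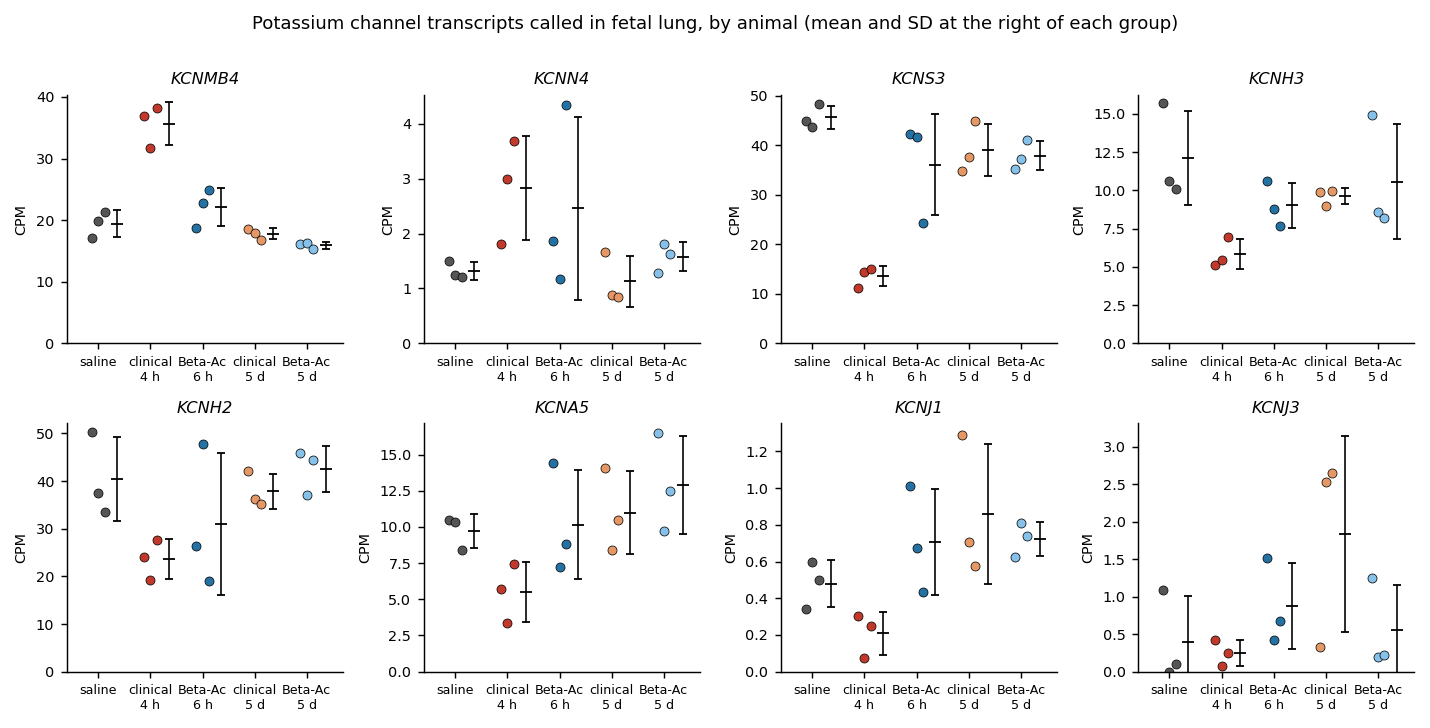
Levels of 8 potassium channel genes called in a lung comparison, in CPM on linear axes from 0, for each of the 15 fetuses by group. Each point is 1 animal, with the mean and SD (n = 3) at its right and SD bars cut at 0. At 4 h after the clinical drug KCNS3 sits at 11.2 to 15.1 CPM below every other lung library, and KCNMB4 at 31.7 to 38.3 CPM above them.

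By family, 1 of the 22 voltage-gated pore subunits tested was higher and 3 were lower at 4 h, with a median log2 fold change of -0.4. Of the 3 KCNMB subunits 1 was higher. No member was called among the 7 auxiliary subunits of voltage-gated channels (median -0.01), the 5 inward rectifiers (median -0.42), the 7 channels with 2 pore domains (median -0.37) or the 6 pores opened by calcium or sodium (median -0.12). At unadjusted p under 0.05 there were 12 members of 51, beside 18.7% of all genes.

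**Figure D2:**
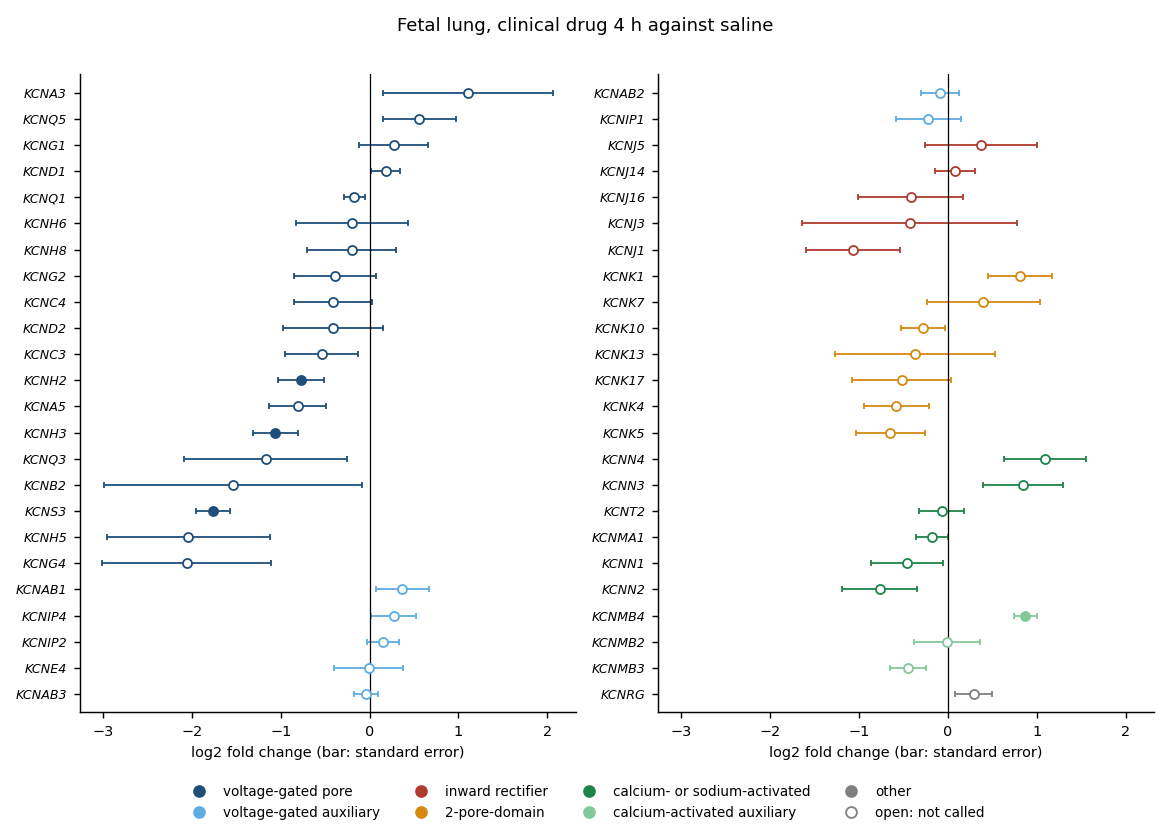
Log2 fold change of 48 of the 51 lung members, clinical drug at 4 h minus saline, with its SE as a bar and members grouped by family. Filled points are called. KCNMB4 is called at 0.87, and KCNS3 at -1.76 is the lowest called value.

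Among genes of known role that were not called, KCNA5 (Kv1.5 of pulmonary artery muscle) was at 3.37 to 7.45 CPM at 4 h and 8.38 to 10.5 CPM in saline, without overlap (log2 fold change -0.81, SE 0.32, edgeR adjusted p = 0.117). KCNN4, the calcium-activated channel of epithelium and immune cells, was at 1.81 to 3.69 CPM against 1.21 to 1.51 CPM (1.09, SE 0.46, adjusted p = 0.145). Neither difference passed the test. KCNQ1, an epithelial and cardiac pore, had nearly flat levels, 23.4 to 25.9 CPM at 4 h against 26.1 to 29.3 CPM in saline (-0.17, SE 0.12, adjusted p = 0.343). KCNK5, a 2-pore-domain channel of transporting epithelia, spread from 24.9 to 42.9 CPM at 4 h and from 27.2 to 76.9 CPM in saline (-0.65, SE 0.39, adjusted p = 0.283), and the groups overlapped. KCNT2, opened by sodium, was at 9.58 to 11.2 CPM against 7.91 to 12.5 CPM. KCNA3, the voltage-gated pore of T cells, KCNJ16, KCNQ3, KCND2 and KCNJ3 were at or below 1.76 CPM in every one of these 6 libraries, with few reads behind each value. Summed T cell markers were 2.62 to 3.94 CPM at 4 h against 5.42 to 12.8 CPM in saline, with 2 called lower of the 3 markers tested from a list of 6, and alveolar epithelial markers were 12400 to 18500 against 7350 to 10700 CPM, with 2 of 6 called higher. Their part in the members' differences was not tested.

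At 6 h after Beta-Ac no member was called by edgeR against saline, beside 0.442% of all genes (0.368% higher and 0.0737% lower). At unadjusted p under 0.05 there were 4 members, beside 11.5% of all genes, and DESeq2 called 1. That gene was KCNK1, a 2-pore-domain channel, at 2.05, 3.19 and 3.57 CPM against 0.803, 1.51 and 1.55 CPM in saline (edgeR log2 fold change 1.19, SE 0.36, adjusted p = 0.207). KCNMB4 was at 18.7 to 24.9 CPM and overlapped saline. KCNS3 was at 42.2, 41.6 and 24.3 CPM, of which the last, in animal 254, lay below every control. Without animal 131, KCNH2 was called, so that this count ranged from 0 to 1 as single animals were left out. The median log2 fold change was 0.02 for the members and 0.02 for all genes.

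Set against Beta-Ac at 6 h, the clinical drug at 4 h left 5 members different, 2 higher and 3 lower after the clinical drug, beside 6.74% of all genes (2.62% higher, 4.11% lower). KCNMB4 was higher by a log2 fold change of 0.69 (SE 0.12, edgeR adjusted p = 0.00666). KCNS3 was lower, at -1.42 (SE 0.19, adjusted p = 0.00147), and only this call held in all 11 alternatives. Without animal 123 the KCNMB4 difference was 0.58 and below the fold required.

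The inward rectifier KCNJ1 (ROMK, a channel of kidney epithelium) was called lower at 0.301, 0.0748 and 0.250 CPM against 1.01, 0.672 and 0.434 CPM after Beta-Ac (log2 fold change -1.61, SE 0.51, edgeR adjusted p = 0.0562). These rest on 1 to 20 reads per library, and the call was lost in 5 of 11 alternatives, among them without animal 85, 97 or 123. KCNA5 was lower at -0.87 (SE 0.32, adjusted p = 0.0846) with 7.22, 8.83 and 14.4 CPM after Beta-Ac, so its groups overlapped. The KCNA5 call was lost in 6 of 11 alternatives, among them without animal 85, 123 or 254. The count over all members was 3 without animal 85 and 2 without animal 123. Summed T cell markers were 2.62 to 3.94 CPM at 4 h against 5.31 to 10.6 CPM after Beta-Ac, with 1 of 3 tested called lower, and blood markers were 23.5 to 41.1 against 31.7 to 153 CPM, with 1 of 2 called lower. Endothelial markers were 2570 to 3520 against 2990 to 3140 CPM, with 1 of 5 called lower, and the part of these markers in the members' differences was not tested. Dose, formulation and time after injection all differed between these groups and cannot be told apart.

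Between 4 h and 5 d after the clinical drug, 9 members differed, 3 higher and 6 lower at 4 h, which is 17.6% of the 51 beside 10.4% of all genes (4.47% higher, 5.92% lower). The 4 h animals are also those of the comparison with saline. KCNS3 was at 34.7, 37.6 and 44.8 CPM at 5 d (log2 fold change of 4 h minus 5 d -1.53, edgeR adjusted p = 0.000152) and KCNMB4 at 16.8 to 18.5 CPM (1.01, adjusted p = 0.000174). In these 2 genes no 4 h animal overlapped a 5 d animal. KCNH3 was at 9 to 9.98 CPM at 5 d (-0.73, adjusted p = 0.0547) and KCNH2 at 35.1 to 42.1 CPM (-0.67, adjusted p = 0.0843).

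Also called were KCNA5, KCNN4, KCNJ1 and KCNJ3. KCNA5 was at 14.1, 8.43 and 10.5 CPM at 5 d against 5.70, 3.37 and 7.45 CPM at 4 h (log2 fold change -0.99, edgeR adjusted p = 0.0437). KCNN4 was at 1.66, 0.876 and 0.845 CPM at 5 d and 1.81, 2.99 and 3.69 CPM at 4 h (1.32, adjusted p = 0.0569). KCNJ1 was at 0.576 to 1.29 CPM at 5 d and at or below 0.301 CPM at 4 h (-1.88, adjusted p = 0.02). KCNJ3 (GIRK1), a G protein-gated inward rectifier, was at 0.323, 2.53 and 2.65 CPM at 5 d and overlapped the 4 h group of 0.0748 to 0.417 CPM (-2.71, adjusted p = 0.0901). KCNS3, KCNMB4 and KCNJ1 held in all 11 alternatives, and 4 members were called without animal 85 and 5 without animal 120 or animal 126. All 3 tested T cell markers were lower at 4 h in this comparison, and their part was not tested.

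At 5 d after either drug no lung member was called against saline by edgeR or DESeq2, where edgeR called 0% of all genes after the clinical drug and 0.00567% after Beta-Ac (0% higher and 0.00567% lower). At unadjusted p under 0.05 there was 1 member for the clinical drug, beside 4.39% of all genes, and there were 6 for Beta-Ac, beside 6.42%. Median log2 fold changes were 0.06 and 0.07 for the members and 0 and 0.01 for all genes. No member was called between Beta-Ac at 6 h and 5 d, beside 0.261% of all genes (0.227% higher and 0.034% lower), with 4 at unadjusted p under 0.05 and 0 by DESeq2. The 2 drugs at 5 d were not tested against each other in lung. KCNS3 was at 34.7 to 44.8 CPM after the clinical drug and 35.2 to 41.1 CPM after Beta-Ac, and KCNMA1 at 23.8 to 28.99 and 23.4 to 32.0 CPM.

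Proteins that work beside potassium channels, such as the potassium chloride cotransporters, were followed through a list of 32 genes, of which 19 were tested in lung and 23 in hippocampus. At 4 h after the clinical drug 3 of the 19 were higher than saline and 0 lower, beside 3.46% of all genes higher and 3.94% lower. Among them, LGI1, a secreted partner of Kv1 channels, was at 0.823 to 1.44 CPM against 0 to 0.251 CPM. The log2 fold change was 2.56 (SE 0.76, edgeR adjusted p = 0.0439), and the call was lost without animal 97 or animal 101. With few reads behind each saline value, the size of this change is imprecise. LGI1 was also higher at 4 h than at 5 d (0.303 to 0.323 CPM, log2 fold change 1.72, SE 0.67, edgeR adjusted p = 0.0848), and that call was lost without animal 85, 97, 115, 120 or 126. Against Beta-Ac at 6 h 2 of the 19 partners were higher at 4 h and 0 lower, beside 2.62% of all genes higher and 4.11% lower, and no partner was called in the other 4 lung comparisons.

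In hippocampus 5 d after the clinical drug, 4 of the 62 members differed from saline, with KCNJ10 and KCNK17 higher and KCNH2 and KCNIP2 lower. The same rule with Benjamini-Hochberg adjustment called 7.86% of all genes (2.5% higher and 5.35% lower), and the members' count was near that background. At unadjusted p under 0.05 there were 13 members, 21% of them, beside 30.6% of all genes. The median log2 fold change was -0.01 for the members and -0.02 for all genes.

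KCNJ10 (Kir4.1) is the inward rectifier through which astrocytes take up potassium. It was at 112, 124, 161, 112 and 139 CPM in the saline animals and 199, 182, 214, 198 and 215 CPM after the clinical drug. Every treated animal lay above every control, and after Beta-Ac the levels were 107 to 172 CPM, overlapping the controls. The log2 fold change was 0.64 (SE 0.13, edgeR adjusted p = 0.0142), from 130 ± 20.9 to 202 ± 13.9 CPM (SD, n = 5 each). With sequencing run as a block it was 0.42 (adjusted p = 0.131), and within the 2 runs that held all groups it was 0.44 (adjusted p = 0.206). For saline, both of these values rest on CTL113 and CTL212 alone. Summed astrocyte markers were 3350 to 4540 CPM after the clinical drug, 2380 to 3570 CPM in saline and 2400 to 4310 CPM after Beta-Ac, with 1 of 5 tested markers called higher, and their part in the KCNJ10 difference was not tested. KCNJ16 (Kir5.1), which joins KCNJ10 in the same channel, was at 5.41 to 8.92 CPM after the clinical drug against 4.28 to 14.04 CPM in saline and was not called (-0.34, SE 0.33, adjusted p = 0.506).

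KCNH2 was at 29.03, 27.57, 20.97, 36.1 and 72.8 CPM in saline, the last in animal CTL212, and at 16.8, 20.5, 19.0, 20.2 and 17.8 CPM after the clinical drug. The groups did not overlap. The log2 fold change was -0.98 (SE 0.25, edgeR adjusted p = 0.0231), and without animal CTL212 it was -0.59 (adjusted p = 0.0176). It was -1.19 with sequencing run as a block and -1.28 within the 2 runs that held all groups. For saline, both of these values rest on CTL113 (20.97 CPM) and CTL212 (72.8 CPM) alone. The call was kept in all 16 alternatives. After Beta-Ac KCNH2 was at 24.9 to 31.7 CPM.

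KCNIP2, a calcium-binding auxiliary subunit of the Kv4 channels, was at 55.5, 53.8, 52.3, 99.6 and 52.9 CPM in saline, with the highest value in animal CTL209, and at 34.5, 32.2, 48.5, 35.3 and 33.5 CPM after the clinical drug. The groups did not overlap, and the log2 fold change was -0.77 (SE 0.27, edgeR adjusted p = 0.0674). Without animal CTL209 it was -0.53 (adjusted p = 0.171), and the call was also lost without animal CEL115, CEL120, CEL238 or CEL245 and with run as a block (-0.50, adjusted p = 0.345). In all, the KCNIP2 call was lost in 7 of 16 alternatives. KCND2 (Kv4.2), a pore that KCNIP2 binds, was at 46.5 to 75.9 CPM after the clinical drug and 43.7 to 68.2 CPM in saline and was not called. After Beta-Ac KCNIP2 spread from 38.8 to 110 CPM.

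KCNK17, a 2-pore-domain channel opened at alkaline pH, was called higher on few reads. It was at 0, 0.618, 3.77, 0.262 and 4.39 CPM after the clinical drug and at 0.117 to 0.501 CPM in saline, so the groups overlapped and animals CEL126 and CEL245 held the difference. The log2 fold change was 2.52 (SE 0.94, edgeR adjusted p = 0.0847), and it was not called without animal CEL126 (adjusted p = 0.194) or animal CEL245 (adjusted p = 0.197) nor in 10 of 16 alternatives in all.

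**Figure D3:**
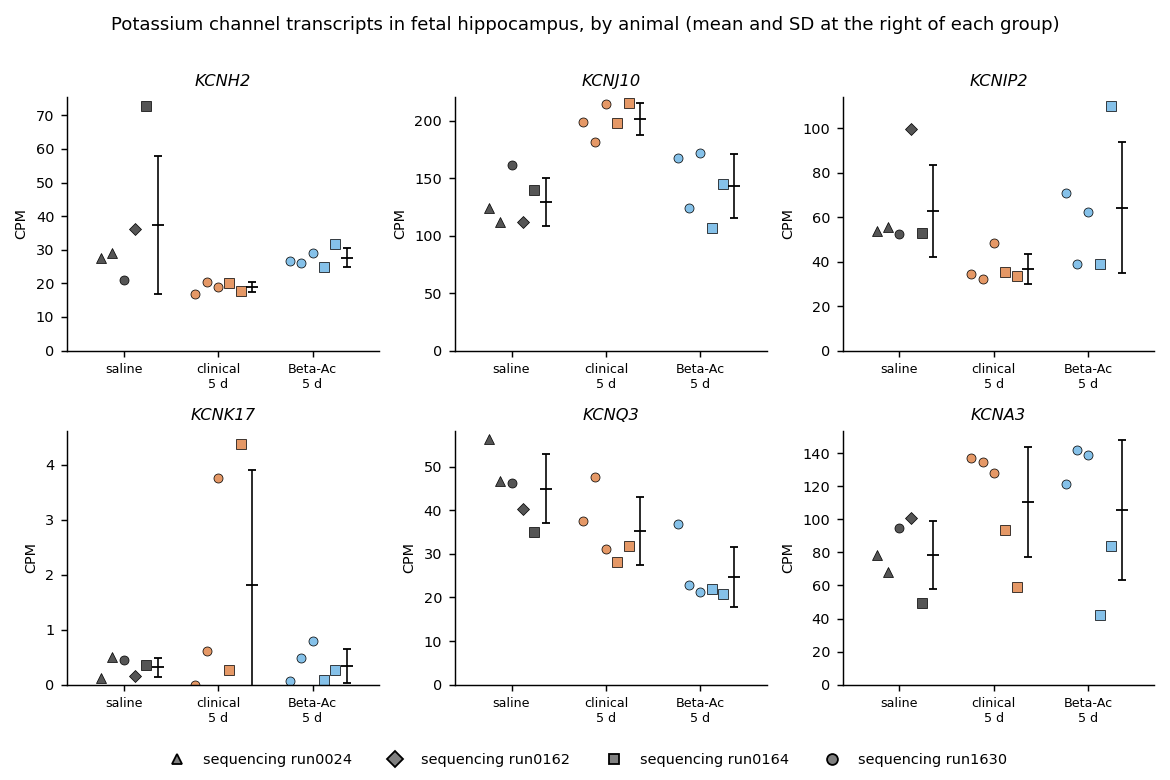
Levels of 6 potassium channel genes in hippocampus, in CPM on linear axes from 0, for each of the 15 fetuses by group, with the sequencing run as marker shape and the mean and SD (n = 5) at the right of each group. KCNH2 and KCNIP2 hold 1 high saline library each (72.8 and 99.6 CPM), and KCNJ10 after the clinical drug sits at 182 to 215 CPM above all saline animals.

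KCNRG passed the test at an adjusted p of 0.0296 (edgeR) but not the fold required, at 15.0 to 20.6 CPM against 9.48 to 13.6 CPM (log2 fold change 0.58, SE 0.16). KCNT1, a sodium-activated pore of neurons, was likewise below the fold at 12.5 to 23.3 CPM against 20.5 to 33.7 CPM (-0.55, SE 0.18, adjusted p = 0.0548). Other neuronal pores of the role list had overlapping groups. KCNC2 (Kv3.2 of fast-spiking interneurons) was at 143 to 229 CPM after the clinical drug against 107 to 191 CPM in saline and KCNC1 (Kv3.1) at 20.1 to 25.5 against 19.5 to 28.9 CPM. KCNJ3 was at 31.0 to 56.0 against 31.1 to 44.2 CPM, KCNJ6 (GIRK2) at 4.08 to 6.93 against 4.60 to 6.85 CPM, and KCNT2 at 23.5 to 84.4 against 34.1 to 59.1 CPM. The genes known from lung were low, with KCNA5 at 2.75 to 3.92 against 2.85 to 4.24 CPM and KCNMA1 at 6.16 to 8.40 against 5.56 to 9.76 CPM.

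**Figure D4:**
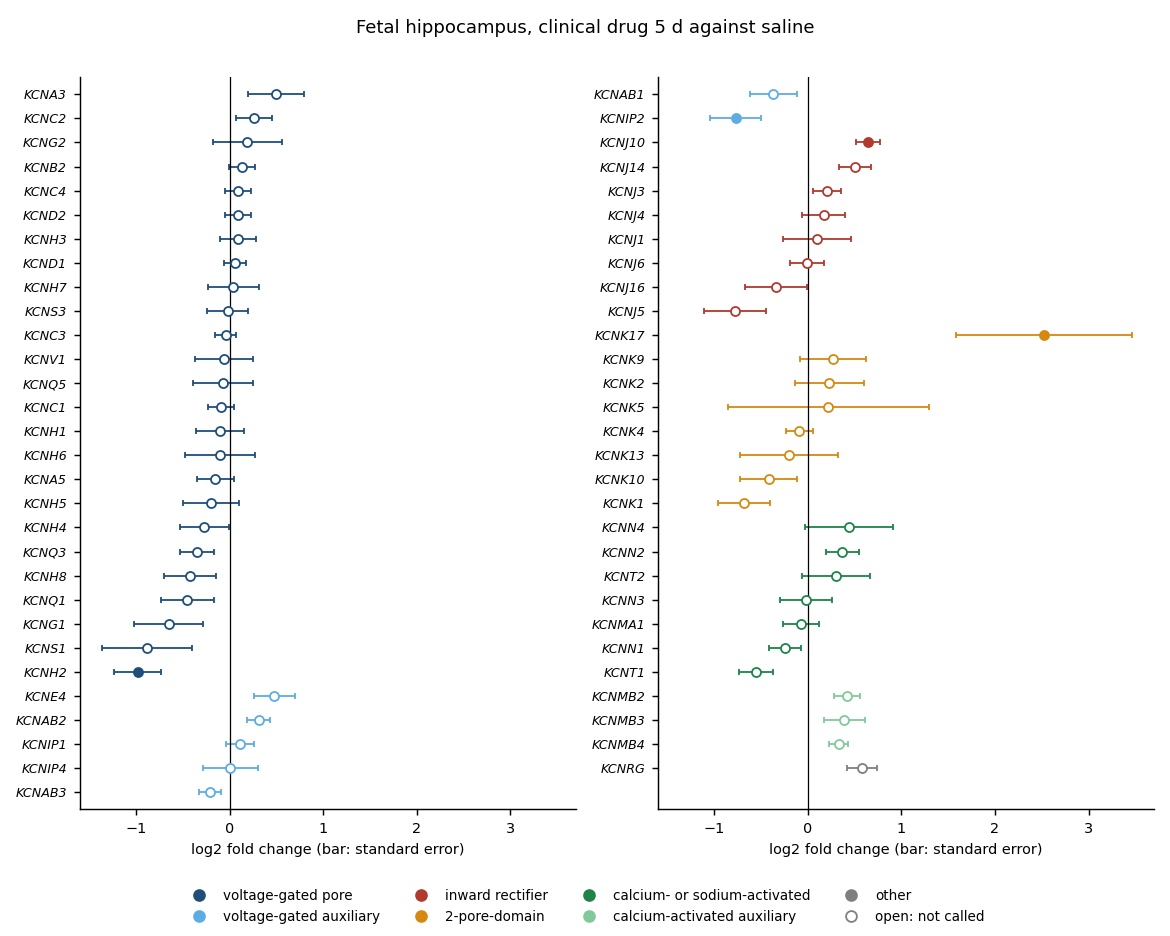
Log2 fold change of 59 of the 62 hippocampus members, clinical drug at 5 d minus saline, with its SE as a bar and members grouped by family. Filled points are the 4 called genes, KCNJ10 (0.64), KCNK17 (2.52), KCNH2 (-0.98) and KCNIP2 (-0.77).

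After Beta-Ac no hippocampus member was called against saline by edgeR, beside 0% of all genes, with 7 at unadjusted p under 0.05 (12.3% of all genes) and 2 by DESeq2. These were KCNQ3 and KCNH5. KCNQ3, a voltage-gated pore of neurons, was at 20.8 to 36.8 CPM against 35.0 to 56.3 CPM in saline, with the 36.8 CPM in animal BAC128 (log2 fold change -0.86, edgeR adjusted p = 0.213). KCNH5, a pore of the ether-a-go-go family, was at 1.90 to 3.94 CPM against 3.29 to 10.8 CPM (-1.22, adjusted p = 0.213). Without animal BAC128 edgeR called both, so the count was 2 in place of 0. The 2 drugs at 5 d differed in 0 members by edgeR, beside 0% of all genes, with 13 at unadjusted p under 0.05 (13.5% of all genes) and 1, KCNH5, by DESeq2. KCNJ10 was 0.50 higher after the clinical drug than after Beta-Ac on the log2 scale (adjusted p = 0.219).

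Of the 23 partners in hippocampus, 2 were lower after the clinical drug and 0 higher, beside 5.35% of all genes lower and 2.5% higher. CNTNAP2, which anchors Kv1 channels beside the nodes of axons, was at 159, 101, 90.0, 114 and 50.8 CPM in saline and at 40.7 to 69.9 CPM after the drug (log2 fold change -0.98, SE 0.26, edgeR adjusted p = 0.0282). The groups overlapped through saline animal CTL212, and the call held without any single animal (-1.15 without CTL212). It was lost with sequencing run as a block (-0.44, edgeR adjusted p = 0.265) and within the 2 runs that held all groups (-0.42, adjusted p = 0.452), alternatives chosen after seeing the data. For saline, both of these settings rest on CTL113 (90.0 CPM) and CTL212 (50.8 CPM) alone. SLC12A7, a potassium chloride cotransporter, was at 4.11 to 15.2 CPM in saline, the highest in animal CTL212, and 3.08 to 4.85 CPM after the drug (-1.01, SE 0.32, adjusted p = 0.0526), and without animal CTL212 it was -0.56 (adjusted p = 0.124). Its call was also lost without animal CEL115 or CEL126, and was kept with run as a block (-1.34, edgeR adjusted p = 0.0531) and within those 2 runs (-1.48, adjusted p = 0.0934). In these settings the saline side again rests on CTL113 (5.77 CPM) and CTL212 (15.2 CPM) alone. In the other 2 hippocampus comparisons no partner was called.

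Sequencing run moved with some members. Within the 12 hippocampus libraries of the 2 runs that held all 3 groups, the runs were compared with treatment as a covariate, a comparison chosen after seeing the data. By edgeR 7 of the 62 members differed between runs, 1 higher and 6 lower in run0164 than in run1630, beside 6.03% of all genes (2.86% higher and 3.16% lower). KCNA3 (log2 fold change -0.95, adjusted p = 0.00415) and KCNT2 (-1.11, adjusted p = 0.0099) were lower, as were KCNQ5 (-0.83), KCNK10 (-0.76), KCNN3 (-0.70) and KCNH7 (-0.62), and KCNG2 was higher (1.00). None of these 7 genes was called between treatments in hippocampus. The runs also separated animals by the year prefix of their number, so run and animal cohort cannot be told apart.

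For 9 fetuses both tissues were sequenced (3 saline, 3 clinical drug at 5 d and 3 Beta-Ac at 5 d), and lung and hippocampus were compared in a joint fit of 15173 genes present in both tables, 61 of them members. Of these, 55 differed between tissues, 10 higher in lung and 45 higher in hippocampus, where 36.4% of all genes were higher in lung and 37.1% in hippocampus, 73.5% together. At unadjusted p under 0.05 there were 57 members, beside 88.6% of all genes. The median log2 fold change of lung minus hippocampus was -3.25 for the members and 0.02 for all genes. Any gene could enter this fit on the reads of a single tissue. Members that had failed the lung filter, among them KCNC1, KCNC2 and KCNH7, entered through hippocampus, so their side was nearly set by the filter. They are part of the 45, of this median and of the counts without overlap that follow. In every treatment, the lung and hippocampus libraries of 8 members did not overlap with lung above (13.1%, beside 35.1% of all genes), and those of 44 members with lung below (72.1%, beside 34.6%). The 2 tables were made from different gene sets, and the tissues also differed in run and processing as labelled, so these cannot be told apart from tissue. CPM in this comparison come from the joint normalization and differ slightly from those above.

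The genes higher in lung were led by KCNK5, at 28.6 to 78.5 CPM in lung and 1.12 ± 2.40 CPM in hippocampus (SD, n = 9 each), 78.4-fold (log2 fold change 6.29, SE 0.57, edgeR adjusted p = 1.49e-08). The highest hippocampus value, 7.49 CPM, came from animal 130, and without that animal the log2 fold change was 7.29. KCNQ1 was at 23.2 to 29.9 CPM against at most 1.69 CPM, 21.2-fold. KCNS3 followed at 4.68-fold, KCNMB3, an auxiliary subunit of the BK channel, at 3.84-fold, and KCNMA1 at 3.47-fold. KCNA5 was 2.95-fold higher in lung. KCNH2 was only 1.54-fold higher, and its call was lost without animal 101 or animal 115, with RLE normalization, with DESeq2 and in the saline animals alone (log2 fold change 0.48).

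Of the genes higher in hippocampus, the Kv3 pores of fast-firing neurons were nearly absent from lung. KCNC2 had 3 reads over the 9 lung libraries and 38181 over the 9 hippocampus libraries. The hippocampus to lung ratio of these pooled reads, scaled to the summed normalized library sizes, was 13900 with a 95% counting interval of 4770 to 67600. KCNC1 had 4 and 4842 reads, a ratio of 1330 with an interval of 518 to 4870. KCNH7 had 0 reads in lung and was at 5.77 ± 1.65 CPM in hippocampus. Against a floor of 3 reads over the 9 lung libraries it was 372-fold higher, and its 95% counting interval starts at 302. The interval and the floor cover counting error only.

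Others also had few lung reads, and their hippocampus to lung ratios of scaled pooled reads are given with the same kind of interval. Such a ratio need not equal that of the mean CPM. The silent subunit KCNV1 had 6 lung reads over the 9 libraries and a ratio of 662 (304 to 1800). The 2-pore-domain channel KCNK2 (TREK-1) had 8 lung reads and a ratio of 899 (456 to 2080). KCNJ6 had 5 lung reads and a ratio of 233 (99.6 to 720), and KCNH4, of the ether-a-go-go family, had 13 and a ratio of 153 (89.4 to 288). These 4 genes had under 2 reads per lung library on average. KCNA3 had 50 lung reads and a ratio of 529 (401 to 712), at 134 ± 33.7 CPM in hippocampus and 0.229 ± 0.177 CPM in lung (SD, n = 9 each). KCNT1 had 35 lung reads and a ratio of 147 (106 to 211). By family the median log2 fold change of lung minus hippocampus was -5.1 for the 29 voltage-gated pores (6 higher in lung, 21 lower), -2.28 for their 7 auxiliary subunits, -2.5 for 6 inward rectifiers, -2.03 for 8 channels with 2 pore domains and -3.19 for the 7 pores opened by calcium or sodium. The 6 members not called were KCNAB3, KCND1, KCNG4, KCNJ14, KCNK17 and KCNN4, of which the auxiliary subunit KCNAB3 was at 53.4 CPM in lung and 63.7 CPM in hippocampus.

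**Figure D5:**
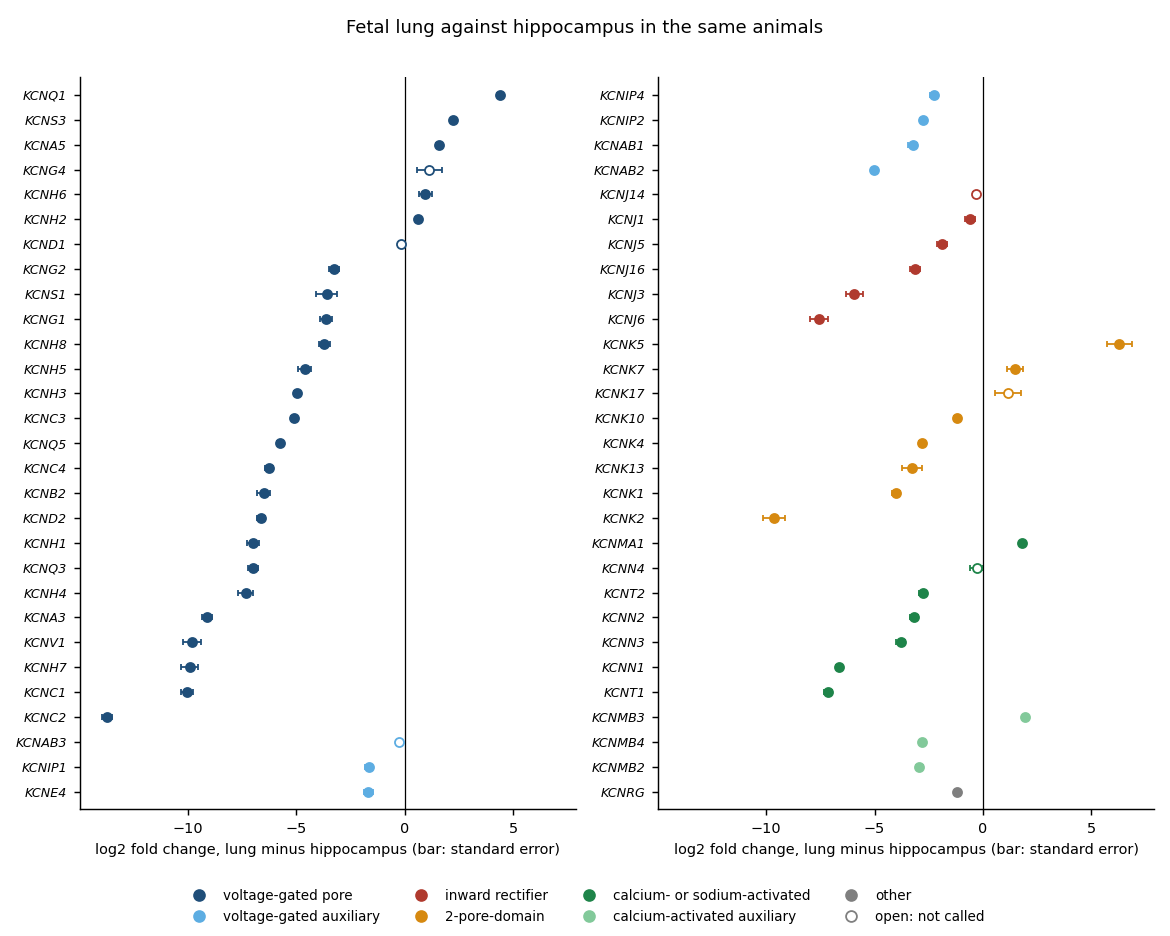
Log2 fold change of lung minus hippocampus for 58 of the 61 members in the 9 fetuses with both tissues, with its SE as a bar and members grouped by family. Filled points are called. Values run from 6.29 for KCNK5 to -13.72 for KCNC2, and 43 of the 52 called members drawn are higher in hippocampus.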

How the data were processed

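The deposited values were whole-number read counts per Ensembl rhesus gene, made by the authors with Bowtie 2 on MMUL1.0 and featureCounts according to the study's methods. The submitters' processing notes name Bowtie 1.2.1.1 and featureCounts 1.5.1 for lung, and Bowtie2 and featureCounts without versions for hippocampus. For lung 30246 identifiers were listed (15769 with a symbol) and for hippocampus 32386 (17621 with a symbol), from different gene sets, with 20572 in common. Nothing but raw counts was used.

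Members and gene lists were chosen with earlier results of these data known. Counts were normalized by TMM and tested with the quasi-likelihood F-test of edgeR 4.0.16 (R 4.3.3), 1 fit per tissue over all groups. Standard errors are the absolute log2 fold change divided by the root of F. The tissue fit held 6 tissue-by-treatment groups, averaged over treatments, and genes with 7 reads in at least 3 of its 18 libraries. Adjusted p-values were Storey's q in lung and Benjamini-Hochberg in hippocampus and between tissues. Prior counts were 2 for log2 CPM and 0.125 for fold changes. In simulated counts, changes were put into 200 genes, drawn only from genes above a minimum mean read count. The lung comparison of the clinical drug at 4 h recovered 73% of the 2-fold and 95% of the 4-fold changes among 17644 genes. The hippocampus comparison of the clinical drug recovered 74% and 98% among 17390 genes. These shares do not cover members with few reads.

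Named were all members called in a drug comparison, the 10 highest and 10 lowest members without overlap between tissues (8 qualified as highest in lung), a list of members of known role, and called partners. Of the role list, KCNA1, KCNA2, KCNJ8, KCNJ13, KCNK3, KCNMB1 and KCNE1 could not be matched and are not analysed here. KCNK1, KCNH5, KCNRG, KCNG1, the members not called between tissues and the genes of the sequencing run were named after their values were seen. Some genes in the counts of called members and partners are not reported here. Alternatives were RLE normalization, no filter, DESeq2 1.42.0, Benjamini-Hochberg adjustment, only the groups compared, sequencing run as a block, and leaving out each animal. Depth was 14.1 to 45 M reads in lung and 18.3 to 29.3 M in hippocampus. Groups held 3 or 5 animals, and for members under 1 CPM counting error also limits the precision. Same-numbered lung and hippocampus libraries were taken to come from the same fetus, and their deviations from the group means correlated at 0.056 to 0.182 across genes. Pairs of different fetuses were not compared, so these values do not test the pairing.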

Additional observations from a re-analysis of the deposited data

Results flagged for a closer look

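Among 84 sets of 1 named hippocampus gene in 1 group of 5 animals, 8 held a library whose gap to its nearest neighbour was large for the range of its group by Dixon's test, where chance gives about 1 in 20. Groups of 3 in lung were not examined. Beta-Ac animal BAC235 held KCNH3 at 418.9 CPM (others 271.6 to 305.4 CPM) and KCNMA1 at 3.903 CPM (others 6.297 to 7.223 CPM). Beta-Ac animal BAC128 held KCNQ3 at 36.84 CPM (others 20.83 to 22.83 CPM). Clinical drug animal CEL126 held KCND2 at 46.49 CPM (others 68.19 to 75.88 CPM), KCNV1 at 8.909 CPM (others 18.77 to 22.44 CPM) and KCNIP2 at 48.52 CPM (others 32.21 to 35.29 CPM). Saline animal CTL212, which also had the high choroid plexus markers, held KCND2 at 43.74 CPM (others 66.22 to 68.22 CPM). Saline animal CTL209 held KCNIP2 at 99.55 CPM (others 52.29 to 55.51 CPM).

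The effect of the clinical drug on lung differed between 4 h and 5 d for 9 members. As both share the saline animals, the difference of the effects is that between the 2 groups, and by edgeR, for those reported, it was -0.99 for KCNA5, -0.67 for KCNH2, -0.73 for KCNH3, -1.88 for KCNJ1, -2.71 for KCNJ3, 1.01 for KCNMB4, 1.32 for KCNN4 and -1.53 for KCNS3 on the log2 scale.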

How the results depend on the processing

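No count of called members and no named gene reversed direction under any alternative. The fold changes of named genes in the drug comparisons kept their side of the threshold in 210 of 273 alternatives and lost the call in 63, and those between tissues kept it in 247 of 252 and lost it in 5. For Beta-Ac at 6 h against saline DESeq2 called 1 member (276 genes in all, against 78 by edgeR). For the clinical drug at 4 h against Beta-Ac at 6 h the count of 5 became 3 with no filter on low counts and 2 in a fit of only the 2 groups, and for the clinical drug at 4 h against 5 d the count of 9 became 5 with no filter, which tests 24704 genes. In hippocampus, the clinical drug against saline gave 1 member (KCNH2) within the 2 runs that held all groups, where CTL113 and CTL212 were the only saline animals. DESeq2 called 2 members in hippocampus for Beta-Ac against saline and 1 between the drugs. The cause was not tested.

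As single animals were left out, the count ranged from 4 to 6 for the clinical drug at 4 h against saline, from 0 to 1 for Beta-Ac at 6 h, from 0 to 0 at 5 d for either drug, from 2 to 6 between the drugs, from 4 to 10 between 4 h and 5 d, from 0 to 1 between Beta-Ac at 6 h and 5 d (KCNH2 without animal 131), from 3 to 6 for the clinical drug in hippocampus, from 0 to 2 for Beta-Ac in hippocampus, from 0 to 0 between the drugs there, and from 54 to 56 between tissues. With the fetus as a replicate block, 55 members differed between tissues (11 higher in lung and 44 lower). The block changed the calls of KCNJ1 and KCNK17 and of no other member. No paired analysis was possible because the drug groups hold different animals and share no replicate numbers. Differences of members under 1 CPM, 14 in lung and 5 in hippocampus, are limited by depth.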

Other observations

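In hippocampus Beta-Ac animal BAC130, KCNK5 was at 6.47 CPM against at most 0.701 CPM in the other 14 libraries, KCNK2 was at 68.4 CPM and KCNG1 at 95.1 CPM. BAC130 held the highest sum of thalamus and striatum markers, 208 CPM, and CTL212 the next at 200 CPM. The part of these markers in the KCNK5 level was not tested. In saline animal CTL212 the 2-pore-domain channel KCNK1 was at 71.6 CPM, beside KCNH2 at 72.8 CPM.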
